A study of Homo sapiens with 12 samples.

Results

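The 10 genes described here, ATF4, ATF3, ATF5, DDIT3 (which encodes CHOP), TRIB3, CHAC1, SESN2, DDIT4, STC2 and PPP1R15A, belong to the ATF4 and CHOP branch of the stress response. They are 10 of the 58735 genes counted and 10 of the 16646 genes that passed the filter on low counts, so no member was lost. The members were chosen by their measured levels in all 4 arms, so their levels and differences are given as a description. No p-value of a member is reported, and calls of members appear only where the stability of classes and values is described. The question addressed was whether each gene lay above its DMSO level under combined treatment, a rise over DMSO, or only returned towards DMSO after a single agent had lowered it, a restored fall.

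RNA was sequenced from C4.2B, a human prostate cancer line of the LNCaP lineage that grows under castrate hormone levels, after 4 treatments with 3 libraries each. DMSO cells received vehicle only, and AKTi cells received the AKT inhibitor ipatasertib at 0.25 μM for 24 hours after vehicle. EZH2i cells received the EZH2 inhibitor tazemetostat at 1 μM for 6 days before and throughout the final 24 hours, and combination cells received this tazemetostat schedule with ipatasertib at 0.25 μM added for the final 24 hours. All arms, DMSO included, spent those 24 hours in medium with charcoal-stripped serum, which is low in steroid hormones, and the tazemetostat arms therefore differ from the others in length of exposure as well as in drug. One line was used and the libraries of an arm were parallel plates, so the spread between them may be technical.

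Cells that cannot match protein synthesis to amino acid, redox or protein folding conditions phosphorylate the initiation factor eIF2α, through the kinases GCN2, PERK, PKR and HRI. General translation then slows while the ATF4 message, whose upstream reading frames hold it back in unstressed cells, is translated more. ATF4 and its partners induce genes for amino acid supply, tRNA charging and redox balance, and with CHOP, ATF3 and TRIB3 the response can turn from adaptation towards cell death. ATF4 is controlled largely at translation and protein stability, neither of which is measured by transcript counts.

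The libraries held 14133755 to 22276417 counts, and levels are given as CPM, each count over its library total after scaling by the trimmed mean of M-values (TMM), times 1e+06. Pairs of libraries within an arm differed beyond sampling noise (chi-square per gene of 2.53 to 7.50). The 10 prostate lineage genes were detected in every library, with KLK3 (prostate-specific antigen) at 1338 to 3980 CPM. Their summed level moved with the arms as well, from 4364 to 4524 CPM in DMSO to 6773 to 6839 in AKTi, 6972 to 7292 in EZH2i and 9451 to 9626 with both agents. The 10 genes did not all move together. By edgeR at an adjusted p under 0.05, 8 were higher and 2 lower in the combination than in DMSO, beside 38% and 35.2% of all tested genes. The 2 lower were HOXB13 and EPCAM (log2 fold changes -0.53 and -0.29). Of 12 markers of leukocytes, endothelium and fibroblasts, 7 did not pass the filter, and CDH5 and COL1A2 reached 0.0480 and 0.101 CPM at most. The summed level of these 12 markers was 8.49 to 12.05 CPM in DMSO, 10.0 to 12.3 in AKTi, 27.7 to 28.9 in EZH2i and 18.5 to 23.7 with both agents, mostly from COL1A1 and VWF. The mitochondrially encoded share of counts was 2.37 to 3.36% in DMSO, 3.93 to 4.29% in AKTi, 4.35 to 5.31% in EZH2i and 5.14 to 5.64% with both agents. All 3 values moved with the arms, and their part in the results was not tested. The libraries are bulk samples, so more cells with a high level and a higher level in each cell cannot be told apart.

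Across the members, both single agents lay mostly below DMSO and the combination mostly above it. In AKTi, every library lay below every DMSO library for 9 of the 10 genes and above for 0, against 26.1% below and 24.9% above among all tested genes. In EZH2i, 7 genes lay wholly below DMSO and 2 wholly above, against 32.4% and 33.8% of all tested genes. In the combination, 9 genes lay wholly above DMSO and 1 wholly below, against 38.5% and 36% of all tested genes. The combination lay wholly above AKTi for 9 genes and wholly below for 1, against 34.2% and 33.7% of all tested genes. It lay wholly above EZH2i for 9 genes and wholly below for 0, against 25.3% and 28.3%. For the 10 genes, the median log2 fold change against DMSO was -0.42 (AKTi), -0.71 (EZH2i) and 1.04 (combination). The corresponding medians over all tested genes were 0.0070, 0.030 and 0.062. These counts repeat the contrasts by which the genes were chosen and are not evidence of their own.

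**Figure D1:**
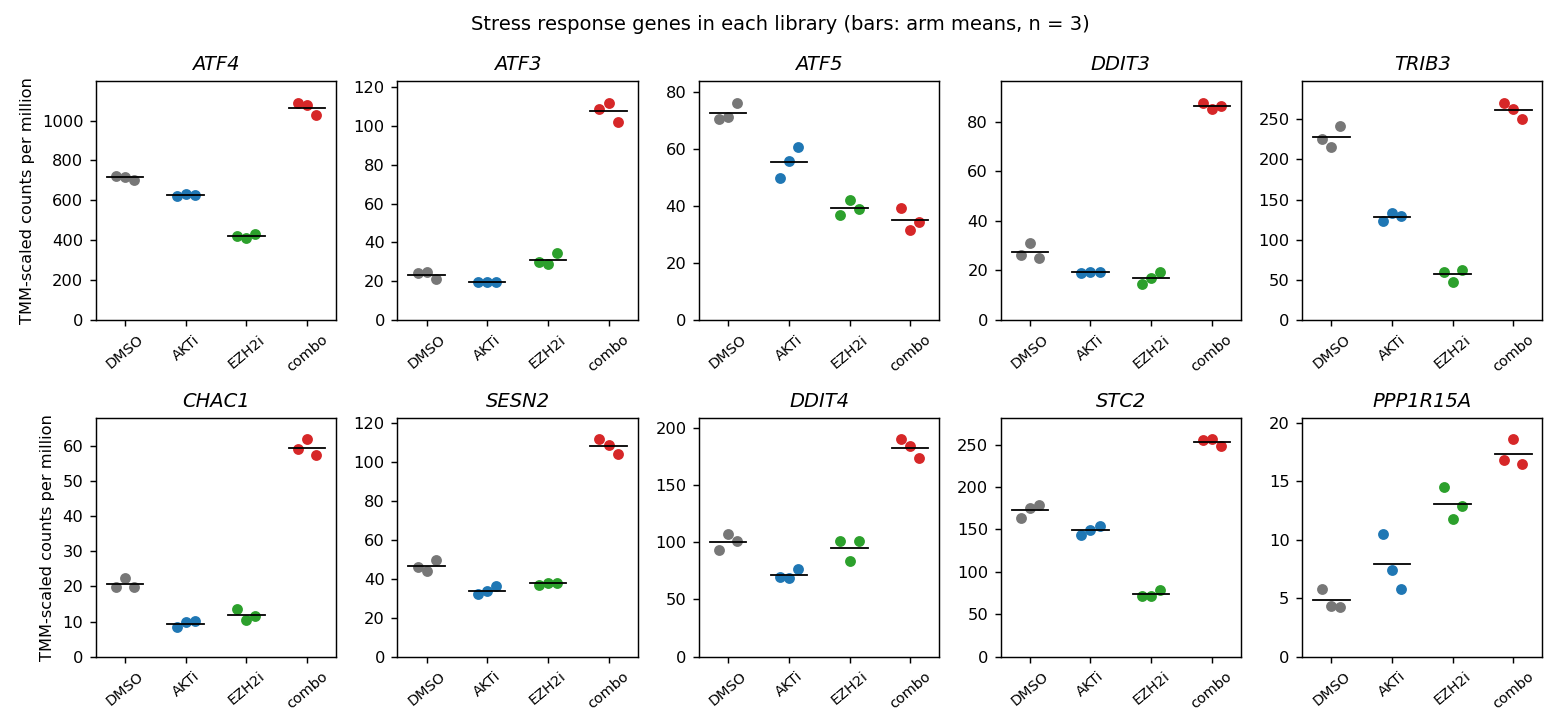
TMM-scaled CPM (vertical axes, linear from 0, 1 panel per gene) of the 10 stress response genes in the 12 libraries of the DMSO, AKTi, EZH2i and combination arms. Points are libraries and bars are means of 3. In 9 panels the 3 combination libraries sit above the 3 DMSO libraries, and in the ATF5 panel they sit below.

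Promoter sequence was examined for letters bound by these factors, because the genes moved together in the combination. RefSeq promoters (GRCh38.p14) were matched for all 10 genes, and the 250 bases before each start were searched on both strands. The core of the C/EBP-ATF response element, TGATGNAA, which ATF4 binds as a dimer with a C/EBP partner, was found in the promoters of 2 members, ATF3 and CHAC1, and in 3.14% of all 35116 promoters (3.89% of 27305 genes, of which some have several promoters). The cyclic AMP response element, TGACGTCA, a site for ATF and CREB family dimers, was found before 1 member, PPP1R15A, and in 1.65% of promoters (2.03% of genes). The ER stress element, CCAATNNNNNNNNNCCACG, bound by ATF6 with NF-Y, was found before 0 members and in 0.074% of promoters (0.0916% of genes). The 3 matches are shown on the plus strand, on which all 3 genes lie, with 11 bases on each side and the matched letters in capitals. In CHAC1 the capitals are the reverse complement of the element.
ATF3: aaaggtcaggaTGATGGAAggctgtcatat
CHAC1: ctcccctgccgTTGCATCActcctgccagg
PPP1R15A: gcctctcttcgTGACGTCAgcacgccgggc
The ATF3 stretch is chr1:212565205-212565234, upstream of every annotated ATF3 transcript in GENCODE version 44, and its match begins 191 bases before the start (position -191). That of CHAC1 is chr15:40953251-40953280, with the match at -209 from the RefSeq start, and GENCODE also places it in the first exon and 5′ untranslated region of a longer CHAC1 transcript. That of PPP1R15A is chr19:48872352-48872381, with the match at -58, and it likewise falls in the 5′ untranslated first exon of 1 longer transcript. A match is a string of letters, not a measured binding site.

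Among the transcription factors, ATF4 (chr22:39519695-39522685, plus strand), the central activator of the response, had the highest level of the 10 genes. ATF4 stood at 723, 717 and 703 CPM in the DMSO libraries A, B and C, and at 620.0, 633 and 628 CPM in AKTi. It stood at 422, 411 and 430.5 CPM in EZH2i and at 1089, 1079 and 1028 CPM in the combination. The 4 arms did not overlap, with EZH2i lowest and the combination highest. Against DMSO, the log2 fold change of ATF4 was -0.19 ± 0.049 (SE, n = 3 per arm) in AKTi, -0.76 ± 0.050 in EZH2i and 0.58 ± 0.049 with both agents. The step from EZH2i to the combination was 1.34 ± 0.050, of which 43.1% lay above the DMSO level and the remainder below it.

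DDIT3 (chr12:57516588-57521737, minus strand) encodes CHOP, a C/EBP-family factor that ATF4 induces and that is linked to cell death under prolonged stress. Its level was 26.1, 30.9 and 24.8 CPM in DMSO and 19.0, 19.2 and 19.3 CPM in AKTi. DDIT3 measured 14.6, 16.9 and 19.4 CPM in EZH2i and 87.7, 85.3 and 86.3 CPM in the combination. Both single arms lay below DMSO and overlapped each other, and the lowest combination library was 2.76 times the highest DMSO library. The log2 fold change of DDIT3 was -0.50 ± 0.096 in AKTi, -0.67 ± 0.095 in EZH2i and 1.67 ± 0.085 with both agents, so 71.5% of its step from EZH2i to the combination (2.34 ± 0.089) lay above DMSO. DDIT3 overlaps MARS (methionyl-tRNA synthetase, 982 bases) and MBD6 (1028 bases) on the opposite strand, and whether counting used strand is not given in the sources used here. MARS averaged 342 CPM in DMSO and 223 CPM in the combination, while MBD6 averaged 26.3 and 70.0 CPM. The part of these overlaps in the DDIT3 counts was not tested.

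ATF3 (chr1:212565334-212620777, plus strand), an early factor that can repress as well as activate, had the largest difference of the 10 genes between the combination and DMSO. ATF3 was counted at 24.2, 24.6 and 20.9 CPM in DMSO and at 19.5, 19.3 and 19.7 CPM in AKTi. In EZH2i it was at 29.9, 29.0 and 34.3 CPM, and in the combination at 109, 112 and 102 CPM. AKTi lay below DMSO and EZH2i above it, and the lowest combination library was 4.15 times the highest DMSO library. The log2 fold change of ATF3 was -0.24 ± 0.090 under AKTi, 0.43 ± 0.084 under EZH2i and 2.22 ± 0.079 under the combination.

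ATF5 (chr19:49928702-49933935, plus strand), an ATF4 target that shares its mode of translational control and acts in the mitochondrial stress response, was the exception. ATF5 gave 70.4, 71.0 and 76.1 CPM in DMSO, 49.7, 55.8 and 60.5 CPM in AKTi, 36.8, 41.8 and 38.8 CPM in EZH2i and 39.3, 31.4 and 34.3 CPM with both agents. All treated arms lay below DMSO, and the EZH2i and combination libraries overlapped. Its log2 fold change was -0.39 ± 0.079 in AKTi, -0.89 ± 0.080 in EZH2i and -1.05 ± 0.081 with both agents. ATF5 overlaps NUP62 by 1062 bases on the opposite strand, and NUP62, a nuclear pore gene, averaged 114 CPM in DMSO, 98.4 in AKTi, 72.6 in EZH2i and 63.7 with both agents, the same order as ATF5. The part of NUP62 reads in the ATF5 counts was not tested.

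Of the genes that restrain the response, TRIB3 (chr20:362835-397559, plus strand), a pseudokinase that binds ATF4 and CHOP and also binds AKT, lay furthest below DMSO in EZH2i. TRIB3 stood at 225, 216 and 241 CPM in DMSO and at 123, 133 and 129 CPM in AKTi. It measured 59.5, 47.7 and 62.7 CPM in EZH2i and 271, 263 and 251 CPM in the combination. The single arms lay well below DMSO, and the combination lay just above it. The log2 fold change of TRIB3 was -0.83 ± 0.067 in AKTi, -2.01 ± 0.070 in EZH2i and 0.20 ± 0.065 with both agents. TRIB3 was thus the member nearest the border between the classes, since its lowest combination library (251 CPM) was 1.04 times its highest DMSO library (241 CPM). Only 9.0% of its step from EZH2i to the combination (2.20 ± 0.070) lay above DMSO. The member on the other side of that border was ATF5, whose lowest combination library was 0.413 times its highest DMSO library.

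PPP1R15A (chr19:48872392-48876057, plus strand) encodes GADD34, the stress-induced subunit that directs the eIF2α phosphatase and so closes the loop. PPP1R15A was the lowest of the 10 genes, with 59 to 89 raw counts per DMSO library. It was at 5.79, 4.35 and 4.27 CPM in DMSO, 10.5, 7.43 and 5.77 CPM in AKTi, 14.5, 11.7 and 12.9 CPM in EZH2i and 16.8, 18.6 and 16.5 CPM with both agents. AKTi overlapped DMSO, and both EZH2i and the combination lay above it without overlapping each other. The log2 fold change of PPP1R15A was 0.72 ± 0.18 in AKTi, 1.45 ± 0.17 in EZH2i and 1.85 ± 0.16 with both agents, which made it the only member above DMSO in the combination that was wholly below DMSO in neither single arm.

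The effectors CHAC1, SESN2, DDIT4 and STC2 all lay above DMSO in the combination. CHAC1 (chr15:40952962-40956519, plus strand) encodes an enzyme that degrades glutathione. CHAC1 was counted at 19.8, 22.3 and 19.9 CPM in DMSO, 8.39, 9.81 and 10.1 CPM in AKTi, 13.5, 10.6 and 11.7 CPM in EZH2i and 59.3, 61.9 and 57.6 CPM with both agents. Both single arms were below DMSO, with AKTi wholly below EZH2i. Its log2 fold change was -1.13 ± 0.11 in AKTi, -0.80 ± 0.10 in EZH2i and 1.53 ± 0.092 with both agents, and 65.7% of the step from EZH2i (2.33 ± 0.097) lay above DMSO.

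SESN2 (chr1:28259527-28282491, plus strand) encodes sestrin 2, a leucine sensor that restrains mTORC1. SESN2 measured 45.7, 43.7 and 49.7 CPM in DMSO, 32.1, 33.4 and 36.1 CPM in AKTi, 36.8, 37.9 and 37.9 CPM in EZH2i and 111, 109 and 104 CPM with both agents. The single arms were below DMSO without overlapping each other, and the combination was at least 2.09 times any DMSO library. Its log2 fold changes were -0.46 ± 0.073, -0.31 ± 0.071 and 1.21 ± 0.067 in AKTi, EZH2i and the combination, and 79.8% of the step from EZH2i lay above DMSO.

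DDIT4 (chr10:72273920-72276036, plus strand) encodes REDD1, another brake on mTORC1. DDIT4 was at 93.4, 107 and 101 CPM in DMSO, 69.4, 68.6 and 76.7 CPM in AKTi, 101, 83.7 and 101 CPM in EZH2i and 189.8, 184 and 174 CPM with both agents. It was the only member whose EZH2i libraries overlapped DMSO, and it was below DMSO in AKTi. The log2 fold change of DDIT4 was -0.49 ± 0.070 in AKTi, -0.08 ± 0.068 in EZH2i, a value whose sign changed with the scaling, and 0.86 ± 0.067 in the combination.

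STC2 (chr5:173314713-173329503, minus strand) encodes stanniocalcin 2, a secreted glycoprotein induced by ER stress. STC2 gave 164, 176 and 179 CPM in DMSO, 143, 149 and 154 CPM in AKTi, 71.7, 71.6 and 78.6 CPM in EZH2i and 255, 256 and 249 CPM with both agents. The 4 arms did not overlap and had the same order as those of ATF4. Its log2 fold change was -0.21 ± 0.056 in AKTi, -1.22 ± 0.058 in EZH2i and 0.55 ± 0.055 with both agents, with 31.1% of the step from EZH2i above DMSO.

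**Figure D2:**
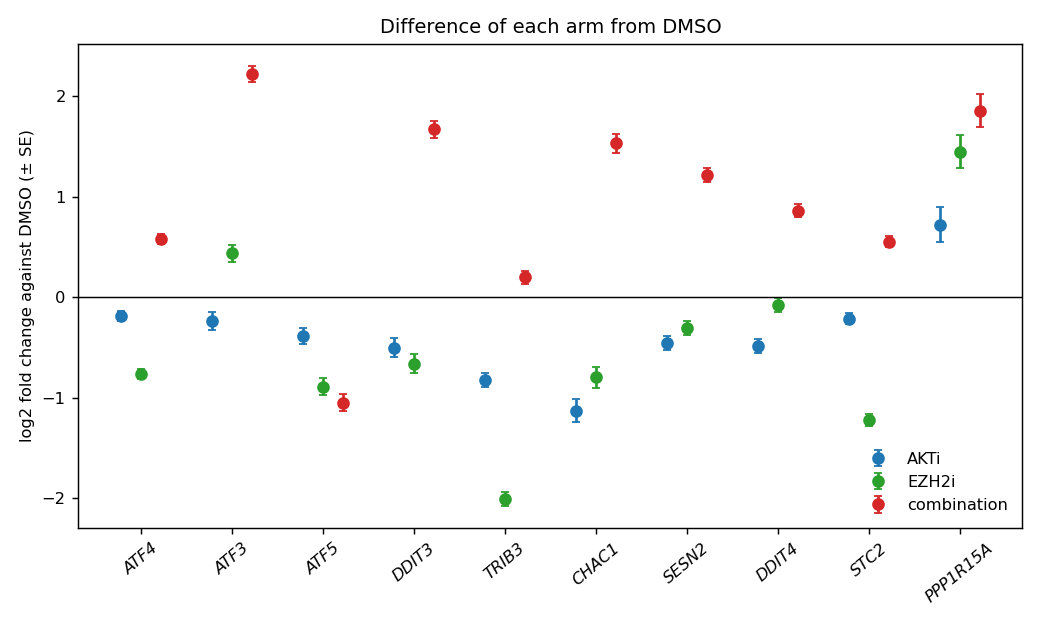
Log2 fold change against DMSO (vertical axis, bars ± SE of the fitted contrast, n = 3 per arm) of the 10 genes in AKTi, EZH2i and the combination. The combination lies above 0 for 9 genes, from 0.20 for TRIB3 to 2.22 for ATF3, and at -1.05 for ATF5.

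The members thus separated into 9 rises over DMSO, 0 restored falls and 1 gene, ATF5, below DMSO and not restored. The classes were set by library ranges. A rise over DMSO needed every combination library above every DMSO library. A restored fall needed a single arm wholly below DMSO, the combination wholly above that arm and not wholly above DMSO. Of the 9 rises, 8 came after a fall in at least 1 single arm and 1, PPP1R15A, did not. Among all tested genes, 38.5% were rises over DMSO, 2.12% were rises after a fall and 5.44% were restored falls. Because these ranges chose the members, the shares are given for scale only. By library ranges, no member changed class under the other scalings or when any 1 library was left out. Adjusted p-values under 0.05 in place of ranges gave the same classes with all libraries and TMM. The same arms chose the members, so this agreement is not evidence for the classes. The rule by adjusted p-values was less stable for 2 members. The TRIB3 difference between the combination and DMSO lost its call without DMSO replicate B (0.12 ± 0.073) and without AKTi replicate A (0.14 ± 0.065), which by adjusted p-values would make TRIB3 a restored fall. The ATF3 difference between AKTi and DMSO lost its call in 6 of 18 alternatives, which would leave ATF3 a rise without a fall.

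Most of these genes were lower with ipatasertib than without it in vehicle-treated cells, and higher with ipatasertib than without it in tazemetostat-treated cells. In 8 genes, all but ATF5 and PPP1R15A, every AKTi library lay below every DMSO library and every combination library lay above every EZH2i library, an arrangement found in 2.44% of all tested genes. The difference between the effects of ipatasertib with and without tazemetostat was 3.46 ± 0.15 on the log2 scale for CHAC1, 3.03 ± 0.097 for TRIB3 and 2.84 ± 0.13 for DDIT3. It was 0.23 ± 0.11 for ATF5 and -0.32 ± 0.23 for PPP1R15A. The median of this difference was 1.98 over the 10 genes and -0.049 over all tested genes. The same arms chose the members, so the share and median of all tested genes are given for scale only.

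To compare levels between genes, CPM was divided by the gene length in the count file, giving RPKM, which is CPM per kilobase. ATF4 was the highest of the 10 genes in every arm, at 284 ± 4.2 RPKM (SD, n = 3) in DMSO and 424 ± 13 RPKM in the combination, and PPP1R15A was the lowest, at 1.55 ± 0.28 and 5.59 ± 0.36 RPKM. In DMSO the order of RPKM levels was ATF4, TRIB3, DDIT4, STC2, ATF5, DDIT3, SESN2, CHAC1, ATF3 and PPP1R15A, with no overlap between neighbours. In the combination it was ATF4, DDIT4, TRIB3, DDIT3, STC2, SESN2, CHAC1, ATF3, ATF5 and PPP1R15A, and only the libraries of SESN2 and CHAC1 overlapped. DDIT3 moved from 20.9 ± 2.4 to 66.1 ± 0.91 RPKM and ATF5 from 24.5 ± 1.1 to 11.8 ± 1.4 RPKM, so the order of this pair was reversed. In EZH2i, TRIB3, ATF5, DDIT3 and STC2 lay at 12.1 to 16.5 RPKM, and each overlapped the next in that order.

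Gene by gene over the 12 libraries, ATF4 was most like STC2 among the members (Pearson r = 0.981 of log2 CPM), and CHAC1 was most like SESN2 (r = 0.978). ATF5 and PPP1R15A ran opposite to each other (r = -0.979). Over 12856 genes with a mean of at least 1 log2 CPM, ATF4 was most similar to SLC25A36 (r = 0.9861), a mitochondrial nucleotide carrier, EIF1 (r = 0.9856), a start codon selection factor, and SLC3A2 (r = 0.9831), the heavy chain of amino acid transporters. DDIT3 was most similar to ESRP1 (r = 0.986), an epithelial splicing regulator, SESN2 (r = 0.9757) and HERPUD1 (r = 0.9693), an ER degradation factor. These correlations rest on 4 arms of 3 libraries that share treatment and scaling, and they describe likeness of pattern only.

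The remaining genes of the pathway were followed in 8 lists with 133 tested genes, which exclude the members, with the quasi-likelihood test of edgeR and Benjamini-Hochberg adjustment over all tested genes. In AKTi 28 rose and 58 fell, against 20.6% and 21.9% of all tested genes. In EZH2i 32 rose and 76 fell, against 32.6% and 31.5%. In the combination against DMSO 55 rose and 63 fell, against 38% and 35.2%. Against EZH2i the combination had 81 higher and 30 lower, beside 21.1% and 25.7% of all tested genes, and against AKTi 61 higher and 54 lower, beside 32.1% and 32.1%. By library size only, the split against AKTi was 72 higher and 40 lower. The interaction, the effect of ipatasertib with tazemetostat minus that without, was called higher in 65 and lower in 25 genes, beside 10.7% and 17.5% of all tested genes. By library ranges 56 of the 133 genes (42.1%) were rises over DMSO, near the 38.5% of all tested genes. Restored falls numbered 34 (25.6%), beside 5.44% of all tested genes. The shares of all tested genes given here are also the background for the counts of each list below.

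**Figure D3:**
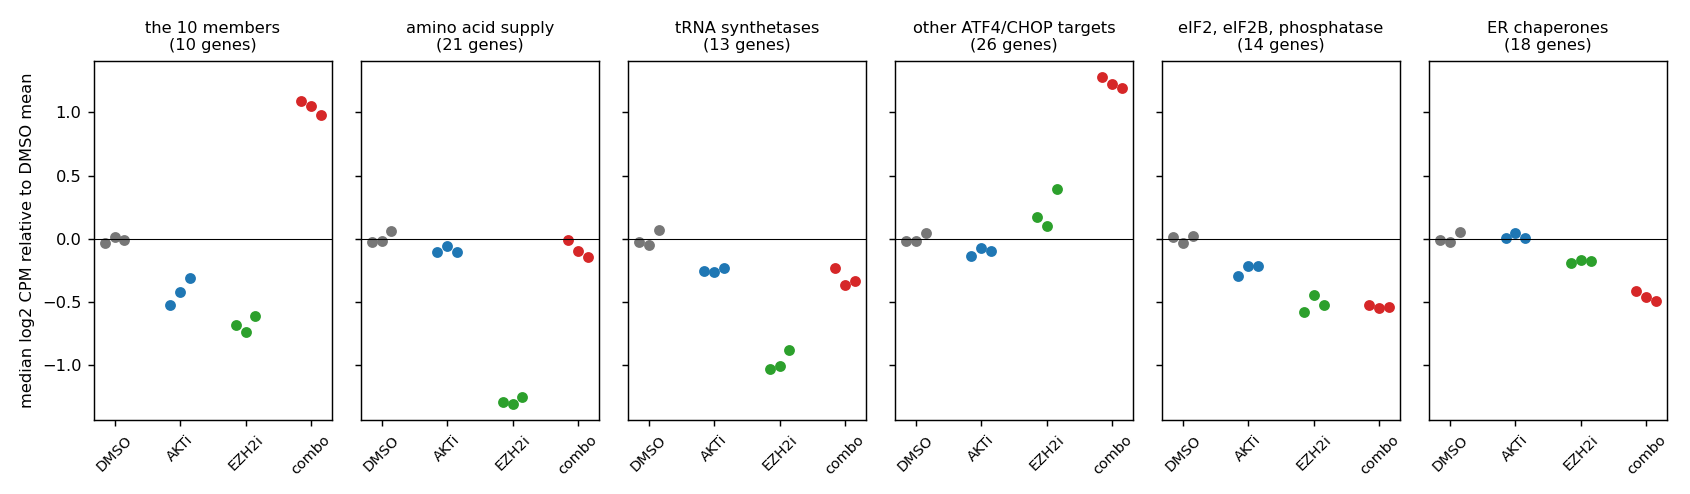
Median over the genes of a list of log2 CPM relative to the DMSO mean (vertical axis), 1 point per library, for the 10 members and 5 pathway lists. In the combination the members lie at 0.98 to 1.09 and the amino acid supply genes at -0.14 to -0.0070, while the ER chaperones lie at -0.49 to -0.41.

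The 21 amino acid supply targets of ATF4 fell in EZH2i without exception (21 lower, median log2 fold change -1.34), while in AKTi 9 were lower and 1 higher (median -0.13). In the combination 19 of 21 were higher than in EZH2i and 1 was lower (median 1.31). Against DMSO, however, 8 were higher and 9 lower (median -0.07), and by library ranges 11 of the 21 genes (52.4%) were restored falls and 8 were rises over DMSO. This balance turned with the scaling, to 10 higher and 7 lower by library size (median 0.12, 8 restored falls) and 10 and 7 by upper quartile (median 0.11, 9 restored falls). Among the rises, the glycine transporter SLC6A9 ranged from 50.8 to 56.0 CPM in DMSO, 20.4 to 24.3 in EZH2i and 108 to 119.5 in the combination. Its log2 fold change in the combination was 1.06 ± 0.068 against DMSO (edgeR adjusted p = 1.4e-16). PCK2, the mitochondrial PEP carboxykinase, had a log2 fold change of 0.87 ± 0.053 against DMSO (edgeR adjusted p = 3.8e-17) after -1.34 ± 0.056 in EZH2i. PSPH, the last enzyme of serine synthesis, ranged from 141 to 159 CPM in DMSO, 42.2 to 46.9 in EZH2i and 54.4 to 61.0 in the combination. PYCR1 and ALDH18A1, both of proline synthesis, were the genes not restored. The log2 fold change of PYCR1 was -1.15 ± 0.053 in EZH2i and -1.14 ± 0.053 in the combination (edgeR adjusted p = 1.1e-20 for the latter).

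The list of 13 cytosolic aminoacyl-tRNA synthetases, which charge tRNAs and include here the tRNA exporter XPOT, fell in EZH2i in full (13 lower, median -0.94) and was 11 lower and 0 higher in AKTi. All 13 were higher in the combination than in EZH2i (median 0.62), yet against DMSO 9 were lower and 3 higher (median -0.31). Restored falls made up 10 of the 13 (76.9%). By library size only, 6 were lower and 4 higher against DMSO (median -0.12, 9 restored falls). By upper quartile, 7 were lower and 4 higher (median -0.13, 9 restored falls). AARS1, for alanine, exceeded DMSO by 0.76 ± 0.057 on the log2 scale (edgeR adjusted p = 1.6e-14) and SARS1, for serine, by 0.39 ± 0.053 (edgeR adjusted p = 3.4e-08). IARS1, for isoleucine, ranged from 545 to 592 CPM in DMSO, 154 to 183 in EZH2i and 209.9 to 216 in the combination, a log2 fold change of -1.39 ± 0.058 against DMSO. MARS1, for methionine, is the gene listed as MARS that overlaps DDIT3, and it was at -0.62 ± 0.054.

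The list of 26 other stress targets of ATF4 or CHOP had the highest median of the 8 pathway lists in the combination against DMSO (1.24). In the combination 18 rose and 6 fell against DMSO, and 22 were higher and 0 lower than in EZH2i. In EZH2i itself 12 were higher and 9 lower than in DMSO (median 0.24, where that of the members was -0.71). Rises over DMSO made up 18 of 26 genes and restored falls 6. KLHL24, a ubiquitin ligase adaptor, ranged from 17.0 to 20.8 CPM in DMSO, 71.6 to 73.3 in AKTi, 104 to 119 in EZH2i and 296 to 326 with both agents, a log2 fold change of 4.05 ± 0.074 (edgeR adjusted p = 5.9e-33). NDRG1, a stress-induced gene that is also androgen responsive, rose by 2.96 ± 0.062 (edgeR adjusted p = 3.6e-31), having already risen by 2.45 ± 0.062 in EZH2i. ADM2, a secreted peptide, and NIBAN1, a target of ATF4, were instead near or below DMSO in EZH2i. ADM2 ranged from 92.2 to 102 CPM in DMSO, 72.0 to 84.6 in EZH2i and 328 to 351 in the combination, and NIBAN1 from 56.1 to 65.0, 50.8 to 59.6 and 210.3 to 228 CPM. The pro-apoptotic PMAIP1 (NOXA) was below DMSO, at -1.56 ± 0.14 (edgeR adjusted p = 2.8e-12), as was INHBE, at -1.28 ± 0.32 (edgeR adjusted p = 5.7e-04). Other pro-apoptotic genes of the list went in both directions. BBC3 (PUMA) rose by 2.12 ± 0.17 (edgeR adjusted p = 9.0e-14) and BCL2L11 (BIM) by 1.36 ± 0.079 (edgeR adjusted p = 7.6e-18). The death receptor TNFRSF10B fell by 0.15 ± 0.054 (edgeR adjusted p = 0.012). BBC3, BCL2L11 and TNFRSF10B were named after their values were seen.

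**Figure D4:**
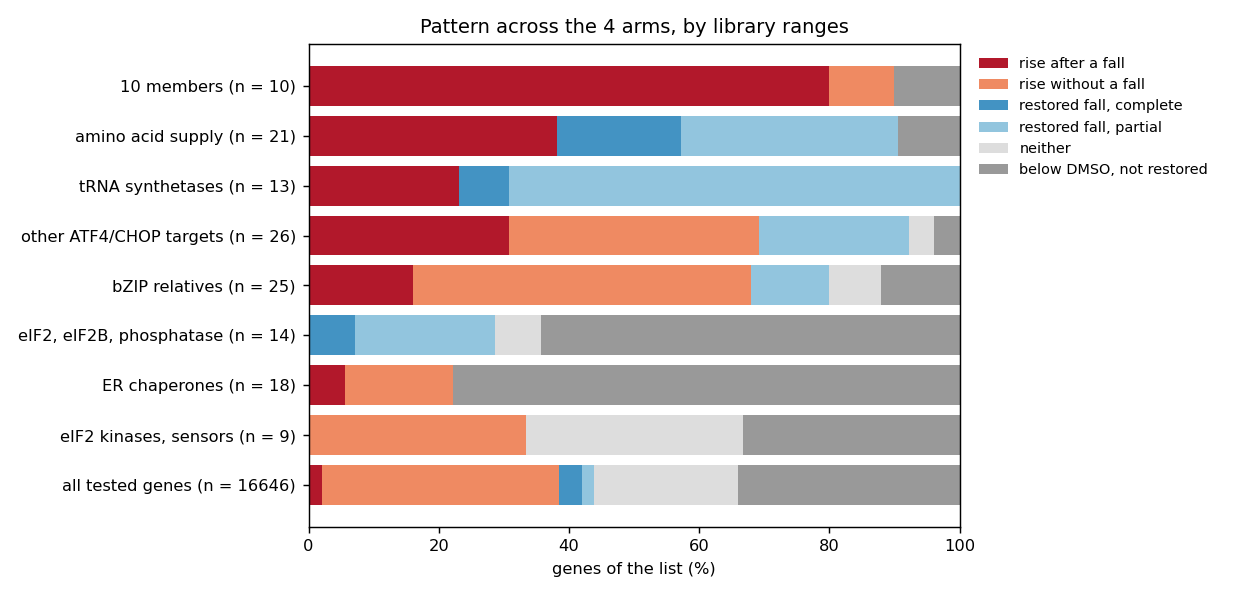
Share of genes (horizontal axis, percent) in each class set by library ranges across the 4 arms, for the 10 members, 7 pathway lists and all 16646 tested genes. Restored falls make up 0% of the members, 52.4% of the amino acid supply genes and 76.9% of the synthetase list, against 5.44% of all tested genes.

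The ER chaperone list stands for the ATF6 and XBP1 arms of the unfolded protein response, which run beside the PERK and ATF4 arm. In the combination 14 of 18 fell against DMSO and 4 rose (median -0.46), and 13 were lower and 4 higher than in EZH2i. The 14 included the major chaperones HSPA5 (BiP) and HSP90B1, named after their values were seen. SDF2L1, a cofactor of BiP, ranged from 57.7 to 59.9 CPM in DMSO, 26.5 to 37.1 in EZH2i and 13.2 to 16.1 in the combination (log2 fold change -2.05 ± 0.099, edgeR adjusted p = 3.7e-20). MANF, a secreted ER protein, was at -1.19 ± 0.059 (edgeR adjusted p = 7.4e-20). Of the 4 that rose, ERN1 encodes the sensor IRE1α and SEL1L a scaffold of ER-associated degradation, neither of them a chaperone. The others were DNAJB9, an ER co-chaperone, at 0.34 ± 0.079 (edgeR adjusted p = 2.6e-04), and EDEM1, at 0.27 ± 0.061 (edgeR adjusted p = 2.1e-04). DNAJB9 and EDEM1 were named after their values were seen. ERN1 rose by 1.31 ± 0.067 (edgeR adjusted p = 1.8e-19) and SEL1L by 1.04 ± 0.054 (edgeR adjusted p = 4.0e-19).

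Upstream of ATF4, the list of 9 eIF2 kinases and sensors had 3 higher and 2 lower in the combination against DMSO (median 0.0094). The shares of all tested genes were 38% and 35.2%. In AKTi 6 of the 9 were higher and 1 lower, beside 20.6% and 21.9%. The 3 that rose in the combination were all among the 4 kinases. On the log2 scale, EIF2AK1 (HRI) rose in the combination by 0.64 ± 0.053 (edgeR adjusted p = 2.2e-13), EIF2AK2 (PKR) by 0.82 ± 0.084 (edgeR adjusted p = 5.6e-11) and EIF2AK3 (PERK) by 0.99 ± 0.079 (edgeR adjusted p = 6.8e-14). EIF2AK1 was already higher than DMSO in AKTi (0.36 ± 0.054) and EZH2i (0.32 ± 0.053). EIF2AK2 was likewise higher in AKTi (0.25 ± 0.087, a call lost under several alternatives) and EZH2i (0.41 ± 0.085). EIF2AK3 had already risen by 1.18 ± 0.079 in EZH2i, where it ranged from 71.5 to 78.7 CPM against 31.6 to 35.2 in DMSO. EIF2AK4 (GCN2) was at 0.01 ± 0.063 in the combination (edgeR adjusted p = 0.90), and its activator GCN1 fell by 0.86 ± 0.054 (edgeR adjusted p = 8.8e-17). OMA1, a mitochondrial protease upstream of HRI, was at -0.17 ± 0.072 with TMM, 0.03 by library size alone and 0.01 by the upper quartile. Of the 14 genes of eIF2, eIF2B and the eIF2α phosphatase, 13 fell and 0 rose in the combination (median -0.54), with 12 lower in EZH2i and 11 in AKTi. EIF2B3, a subunit of the exchange factor, fell by 2.09 ± 0.098 (edgeR adjusted p = 1.3e-20) and EIF2S1, eIF2α itself, by 0.99 ± 0.054 (edgeR adjusted p = 1.3e-18). Transcript counts say nothing of kinase activity or eIF2α phosphorylation.

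The basic leucine zipper partners and relatives of ATF4 and CHOP numbered 25, of which 16 rose and 6 fell in the combination (median 0.41). FOSL2 rose (edgeR adjusted p = 1.1e-23) from 22.1 to 26.5 CPM in DMSO to 94.6 to 96.8 CPM, with 72.5 to 77.2 CPM in EZH2i. MAFF rose by 2.27 ± 0.28 (edgeR adjusted p = 3.3e-09) from 0.885 to 1.48 CPM in DMSO. The C/EBP genes went in both directions, since CEBPB and CEBPG were rises after a fall by library ranges, while CEBPA fell by 0.65 ± 0.10 (edgeR adjusted p = 4.7e-07) and CEBPD by 1.73 ± 0.20 (edgeR adjusted p = 5.6e-10). CEBPB and CEBPG were named after their values were seen. Immediate early genes respond to handling as well as to signals. Of the 9 tested, 6 were higher in EZH2i and 4 in the combination, beside 32.6% and 38% of all tested genes. In both arms 0 were lower, beside 31.5% and 35.2%. The summed level of the immediate early list was 258 to 286 CPM in DMSO, 281 to 299 in AKTi, 391 to 415 in EZH2i and 380 to 393 with both agents. The EZH2i and combination ranges of that sum overlapped, and both lay above DMSO. MCL1 had the highest level of these genes, at 165 to 243 CPM over the libraries. Against EZH2i, the combination had 1 gene of the immediate early list higher and 2 lower. FOS and JUN, also immediate early genes, were counted in the leucine zipper list instead. Both were higher in the combination than in EZH2i, FOS by 1.93 ± 0.64 (edgeR adjusted p = 0.013) and JUN by 0.34 ± 0.066 (edgeR adjusted p = 4.3e-05). JUNB of the same list was not called (-0.16). FOS, JUN and JUNB were named after their values were seen. The part of immediate early genes in the results was not tested.

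Of the 7 paralogs of members, 3 rose and 4 fell in the combination, beside 38% and 35.2% of all tested genes. CHAC2, the paralog of CHAC1, fell by 3.26 ± 0.23 in the combination (edgeR adjusted p = 1.4e-15), from 13.3 to 14.7 CPM in DMSO to 0.760 to 2.36 CPM. DDIT4L fell by 1.46 ± 0.15 (edgeR adjusted p = 1.3e-10) and STC1 by 0.99 ± 0.27 (edgeR adjusted p = 0.0015). STC1 was lower still in AKTi, at -2.14 ± 0.32 against DMSO, and higher than DMSO in EZH2i (0.78 ± 0.24). Its combination level exceeded AKTi by 1.15 ± 0.35 (edgeR adjusted p = 0.0045), a call lost without combination replicate C. By library ranges STC1 was below DMSO and not restored. The sestrins SESN1 and SESN3, both FOXO targets, were already higher in EZH2i, by 2.66 ± 0.069 and 1.90 ± 0.058, where SESN2 was at -0.31. SESN1 ranged from 27.1 to 33.5 CPM in DMSO, 182 to 207 in EZH2i and 279 to 293 in the combination. TRIB1 rose by 1.12 ± 0.11 (edgeR adjusted p = 2.1e-11), and TRIB2 fell by 0.26 ± 0.063 (edgeR adjusted p = 3.5e-04) after a rise of 0.82 ± 0.061 in EZH2i. TRIB2 was not called in the combination when scaled by library size (-0.06) or upper quartile (-0.08).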

How the data were processed

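PolyA RNA-seq of C4.2B cells was analysed in 4 arms of 3 libraries. The authors deposited whole-number counts for 58735 genes, made with HTSeq from STAR alignments to hg38. Versions, annotation and strand setting are not given in the sources used here. The deposited DESeq2-normalized values were not used. The study names 2 sequencing providers without assigning libraries to them, so batch could not be modelled.

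Counts were filtered with filterByExpr (minimum count 10, minimum total 15), scaled by TMM and tested with edgeR 4.0.16 in R 4.3.3 (glmQLFit and glmQLFTest, 1 mean per arm over all 12 libraries, 6 contrasts), with Benjamini-Hochberg adjustment over 16646 genes and a threshold of 0.05. A standard error is the log2 fold change divided by the square root of F. In simulated counts, 173 of 200 genes made 2-fold higher in the combination against DMSO were recovered, and 11 of the 16140 genes simulated were called falsely. Some genes appear under older symbols in the files (AARS for AARS1, FAM129A for NIBAN1).

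The members and gene lists were chosen with earlier results of these data known, and the lists were written from general knowledge. Genes named are all members, the 4 eIF2 kinases, all paralogs, the 2 largest and 2 smallest called log2 fold changes of each list against DMSO (for amino acid, other target and ER lists also against EZH2i) and the 3 genes most correlated with ATF4 and DDIT3. Alternative settings comprised DESeq2 1.42.0, scaling by library size or upper quartile, a minimum of 1 count summed over libraries or of 10 per library, fits to the compared arms alone, a block for the replicate letter, and omission of each library in turn. The fits to the compared arms alone were used only for the counts of pathway genes, without the interaction. The values of each member were thus followed over the other 18 alternatives. Replicate letters did not pair the libraries (correlation of deviations -0.058 to 0.069 over 18 same-letter pairs, and 4 of 12 libraries closest to their own letter). The intervals cover the spread between plates of 1 line. Figures were drawn with matplotlib 3.10.9.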

Additional observations from a re-analysis of the deposited data

Results flagged for a closer look

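The effect of ipatasertib went in opposite directions without and with tazemetostat for 8 members and 7 of the other pathway genes screened. The screen covered only the eIF2 kinases, the paralogs and the genes with the largest and smallest fold changes of each list. The 7 were thus drawn from genes picked in part by extreme fold changes of the combination, and they give no rate for the pathway. The share of all tested genes that meet the rule for these 7 was not computed. For the 8 members, every AKTi library lay below every DMSO library and every combination library above every EZH2i library. This arrangement was found in 2.44% of all tested genes, a share given for scale only. No p-value is given for the members because the same arms chose them. The difference of the 2 effects on the log2 scale was 3.46 for CHAC1, 3.03 for TRIB3, 2.84 for DDIT3, 2.03 for ATF3, 1.99 for STC2, 1.98 for SESN2, 1.53 for ATF4 and 1.43 for DDIT4. CHAC1 thus went from -1.13 without tazemetostat to 2.33 with it, and DDIT4 from -0.49 to 0.94.

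For the other genes the interaction was tested with edgeR over all tested genes, of which 10.7% were called higher and 17.5% lower. NIBAN1, a target of ATF4, had the largest interaction of the 7 (2.46, edgeR adjusted p = 5.8e-21), with effects of -0.50 without and 1.96 with tazemetostat. PMAIP1 had 1.72 (edgeR adjusted p = 7.3e-08), SARS1 1.59 (edgeR adjusted p = 1.0e-18) and PSPH 1.07 (edgeR adjusted p = 2.5e-11). MARS1 had 0.84 (edgeR adjusted p = 8.8e-11) and IARS1 0.79 (edgeR adjusted p = 1.6e-09). OMA1 ran the other way, at 0.38 without and -0.17 with tazemetostat (interaction -0.56, edgeR adjusted p = 5.1e-05), and the second of these effects lost its call under several alternatives. Pathway genes outside the screen also had called effects in opposite directions and a called interaction, some of them larger. Examples, picked after their values were seen, were FGF21 (-3.24 without and 1.61 with tazemetostat, interaction 4.86, edgeR adjusted p = 5.9e-06) and SLC7A11 (-0.61 and 1.91, interaction 2.52, edgeR adjusted p = 3.5e-22). No search for outlying libraries was made, since each arm held 3.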

How the results depend on the processing

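The counts of pathway genes called in the 6 comparisons moved by less than 1.5 times under each alternative run, and no member changed class by library ranges. With the replicate block, the calls among the 133 pathway genes against DMSO were 86 (AKTi), 107 (EZH2i) and 118 (combination), beside 86, 108 and 118 without it. The balance of directions followed the scaling. By library size only, 62 pathway genes were higher and 50 lower in the combination against DMSO, beside 55 and 63 with TMM, and the median of all tested genes shifted from 0.062 to 0.26 on the log2 scale. OMA1 reversed in the combination against DMSO, to 0.027 by library size only and 0.015 by upper quartile. Of 1080 alternative values for members, 3 changed sign, all for DDIT4 in EZH2i against DMSO (-0.16 to 0.06 over the alternatives). Of these values 14 changed their call, among them TRIB3 in the combination against DMSO (0.12 to 0.40, lost in 2 alternatives), ATF3 in AKTi against DMSO (lost in 6) and PPP1R15A in the combination against EZH2i (lost in 2). ATF5 gained a call in 3 alternatives against EZH2i and 1 for the interaction. PPP1R15A had the lowest counts, which limits its precision. MAFF in EZH2i and OMA1 in the combination against EZH2i lost their calls under several alternatives. The cause was not tested for any of these changes.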
